A study of Mus musculus with 18 samples.

Results

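The genes described here are 35 mouse genes of protein folding in the endoplasmic reticulum (ER) and of the unfolded protein response, the programme that a cell switches on when unfolded proteins build up there. The members were taken from a list of gene symbols. Each member was read from a probe set annotated with exactly 1 gene symbol, and from the brightest such probe set where a gene had several. All 35 listed genes were measured, out of 19937 genes on the arrays. They comprise 8 lumenal chaperones and cofactors, 4 J-domain co-chaperones, 4 disulphide isomerases, 5 stress sensors and transcription factors, 4 genes of the ATF4 and CHOP arm, 8 genes of ER-associated degradation and 2 subunits of the Sec61 translocon.

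The study asked what raised levels of the farnesoid X receptor (FXR), a bile acid receptor of the nuclear receptor family, do to adipose tissue. Brown adipose tissue (BAT), which burns lipid to make heat, came from 5 wild-type control mice and 5 mice that overexpress human FXR specifically in adipose tissue. White adipose tissue (WAT), which stores lipid, came from 4 control mice and 4 such FXR mice. All mice were male C57BL/6J animals aged 10 weeks on chow, and the extract text of control BAT 2 and control BAT 4 adds that feeding lasted 6 weeks, with no word on whether these mice were fed differently from the others. The promoter that drives the human FXR transgene, the WAT depot and whether BAT and WAT were taken from the same mice are not given in the sources used here. Per the series text, the arrays within each group are biological replicates.

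Proteins bound for secretion, membranes or the cell surface enter the ER through the Sec61 channel and fold there with the help of chaperones, lectins and enzymes that form disulphide bonds. Proteins that fail to fold are passed back to the cytosol and destroyed, a route called ER-associated degradation. When unfolded proteins accumulate, IRE1 splices the messenger RNA of XBP1, PERK slows translation and favours that of ATF4, and ATF6 is cut to release a transcription factor, and together these arms raise chaperone and degradation genes. Adipocytes secrete hormones and lipases, fibroblasts of the tissue secrete collagen, and both depend on this machinery. Probe sets of whole genes report transcript levels, and neither splicing of Xbp1 nor phosphorylation or cleavage of the sensors was measured.

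Each of the 18 arrays gave 1 linear intensity per probe set, and levels are given here as log2(intensity + 1). Median intensities were 93.1 to 99.9 units for BAT arrays but only 60.5 to 61.7 for WAT arrays, so levels of the tissues do not stand on 1 common scale. Pearson correlations of log2 values between arrays of a group, taken across genes, were at least 0.973. The labels of tissue were borne out by Ucp1, the heat-producing uncoupling protein of brown adipocytes, with log2 levels from 12.61 to 13.42 in BAT but 5.73 to 6.01 in WAT. The arrays read mouse Nr1h4, whose log2 level stayed between 5.85 and 6.31, and so gave no check of the human transgene. In bulk tissue, fewer cells of a type and less RNA per cell cannot be told apart.

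Changes are FXR minus control differences of log2 levels with the standard error (SE) of limma, tested two-sided within a tissue over all 19937 genes. A gene counts as called where its p-value, adjusted after Benjamini-Hochberg over all genes, was below 0.05. In BAT, 9 of the 35 members (25.7%) were called, 3 higher and 6 lower in FXR mice, beside 15.7% of all genes (7.00% higher and 8.72% lower). In WAT, 3 members (8.57%) were called, 1 higher and 2 lower, beside 1.32% of all genes (0.863% higher and 0.456% lower). FXR and control arrays did not overlap for 6 members in BAT (17.1%), beside 12.2% of all genes, and for 7 members in WAT (20.0%), beside 7.77% of all genes. The median change of the members was -0.050 in BAT, where that of all genes was 0.011, and 0.057 in WAT, where that of all genes was 0.00098. Called members in BAT thus went in both directions. After each array was centred on its median, 2 members were higher and 10 lower in BAT, while calls over all genes went from 1396 higher and 1739 lower to 776 and 4077. None of the 9 calls changed direction under any setting tried.

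**Figure D1:**
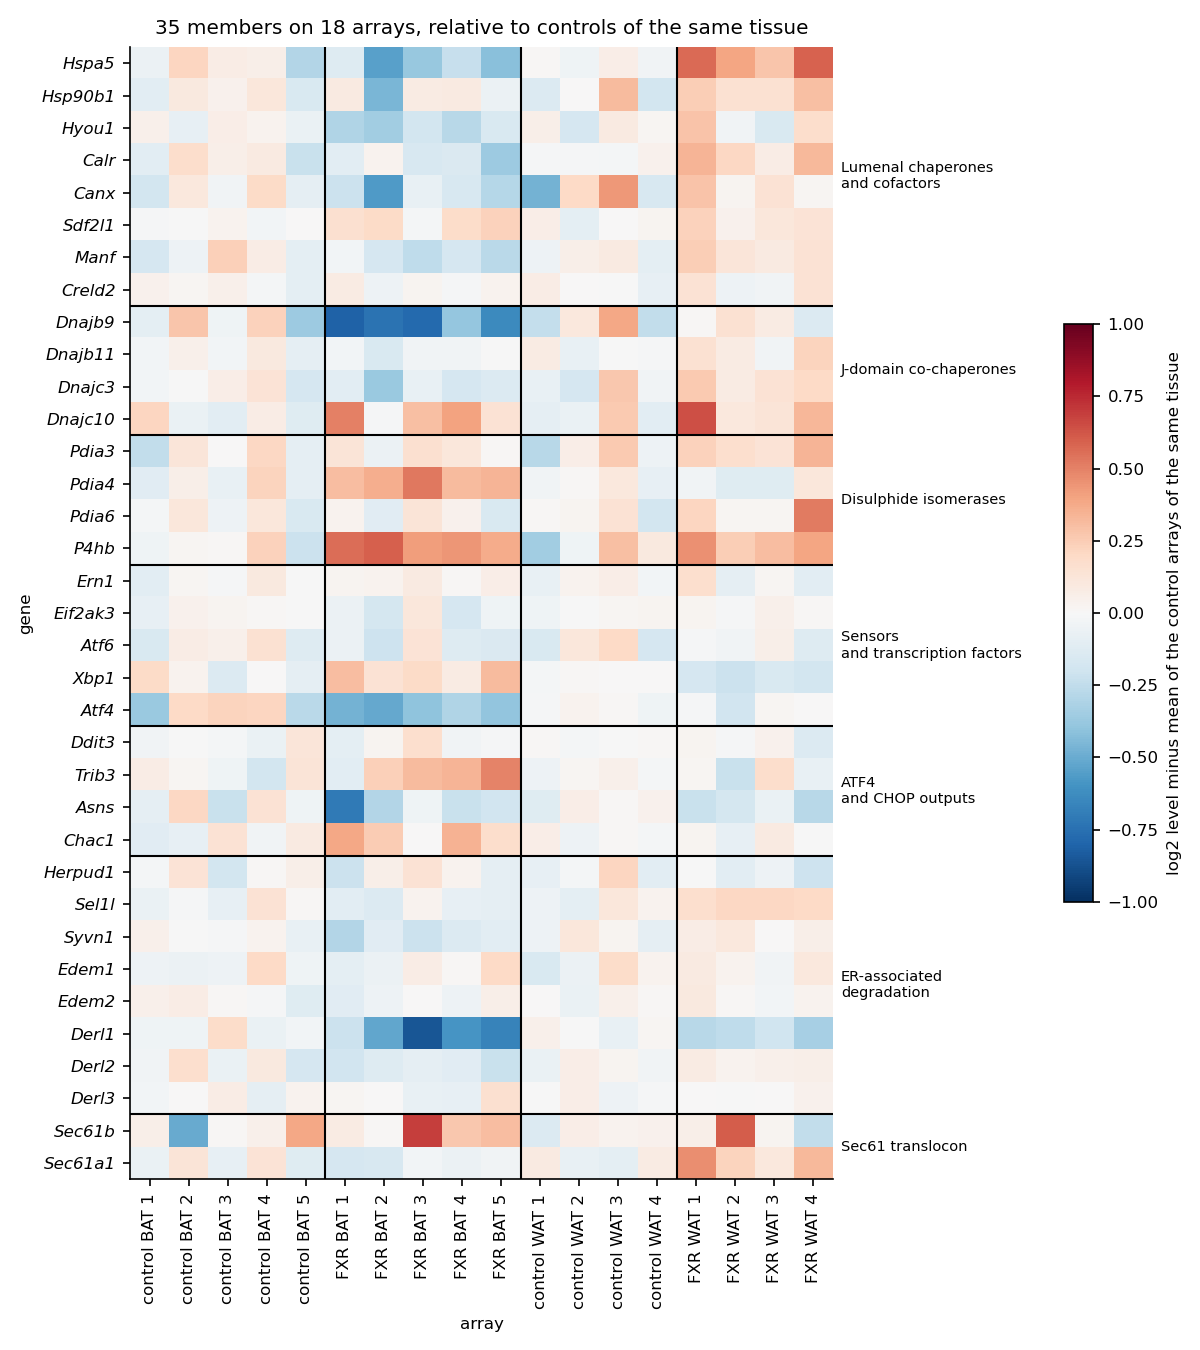
Log2 level of each of the 35 members (rows, grouped by role) on each of the 18 arrays (columns), minus the mean of the control arrays of the same tissue, on a colour scale from -1 (blue) to 1 (red) log2 units. On FXR BAT arrays P4hb and Pdia4 are red and Dnajb9, Derl1 and Atf4 blue, while Hspa5 is blue on FXR BAT arrays and red on all 4 FXR WAT arrays.

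Several members carry in their promoters the ER stress response element, the site through which ATF6 and the factor NF-Y act on chaperone genes, made of CCAAT and CCACG 9 bases apart. RefSeq promoter windows of build GRCm38.p6, from 250 bases before to 50 bases after each gene's start, were searched on both strands and held 30 of the 35 members. The element occurred in 9 of these 30 members and in 0.119% of 32851 windows (37 of 27025 genes). Only exact matches of the fixed bases were counted, and variants of the element were not searched. The sites are shown because the values of the genes that carry them are set side by side further on. Capitals mark the fixed bases of the element, and each site reads 5′ to 3′ on the strand that carries CCAAT.
Hspa5, chr2:34772025-34772043, plus strand: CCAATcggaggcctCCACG
Hsp90b1, chr10:86705638-86705656, minus strand: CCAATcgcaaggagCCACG
Hsp90b1, chr10:86705533-86705551, plus strand: CCAATcgtgcctcaCCACG
Calr, chr8:84847075-84847093, plus strand: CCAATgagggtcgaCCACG
Canx, chr11:50325800-50325818, minus strand: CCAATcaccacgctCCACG
Creld2, chr15:88819520-88819538, minus strand: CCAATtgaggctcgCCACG
Dnajc3, chr14:118937827-118937845, plus strand: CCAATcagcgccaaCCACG
Pdia6, chr12:17266491-17266509, plus strand: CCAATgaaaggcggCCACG
Syvn1, chr19:6046532-6046550, plus strand: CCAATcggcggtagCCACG
Derl3, chr10:75893242-75893260, minus strand: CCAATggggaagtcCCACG
The site of Hspa5 starts 65 bases before the gene's start and that of Syvn1 44 bases before it. The second type of the element, ATTGG and CCACG 1 base apart, occurred in Dnajb11 and Herpud1 and in 0.0365% of windows. TGATGNAA, the composite C/EBP-ATF element bound by ATF4, occurred in Asns, Chac1, Trib3 and Herpud1 and in 3.97% of windows. TGACGTGG, the core element of XBP1, was found in 0 of the 30 member windows and in 0.676% of all windows.

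The promoters of Hspa5, of P4hb and of Dnajb9 are printed for comparison, since these members had, in that order, the largest called rise in WAT, the largest called rise in BAT and the largest called fall in BAT. Each stretch holds the 250 bases before the gene's start on the gene's own strand, at chr2:34771840-34772089 (plus strand), chr11:120573254-120573503 (minus strand) and chr12:44210069-44210318 (minus strand) of GRCm38.p6. Capitals in that of Hspa5 mark the exact match to the ER stress response element, spacer included. No exact match to any of the 4 motifs above was found in the other stretches.
Hspa5: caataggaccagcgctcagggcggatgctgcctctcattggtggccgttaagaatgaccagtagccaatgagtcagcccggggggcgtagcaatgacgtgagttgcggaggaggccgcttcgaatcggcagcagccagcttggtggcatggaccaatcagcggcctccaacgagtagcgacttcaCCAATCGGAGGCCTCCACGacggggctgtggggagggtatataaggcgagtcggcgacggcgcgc
P4hb: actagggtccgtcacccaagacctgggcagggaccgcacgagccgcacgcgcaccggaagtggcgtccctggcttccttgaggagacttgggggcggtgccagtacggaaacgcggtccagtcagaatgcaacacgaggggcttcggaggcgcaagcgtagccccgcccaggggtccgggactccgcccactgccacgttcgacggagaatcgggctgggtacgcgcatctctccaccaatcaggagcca
Dnajb9: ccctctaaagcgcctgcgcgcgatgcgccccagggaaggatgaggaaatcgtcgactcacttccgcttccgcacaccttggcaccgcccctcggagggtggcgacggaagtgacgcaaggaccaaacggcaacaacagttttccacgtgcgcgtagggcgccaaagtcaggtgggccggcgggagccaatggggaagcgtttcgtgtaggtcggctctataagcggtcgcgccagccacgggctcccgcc

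Among the lumenal chaperones, Hspa5 and Hyou1 were lower and Sdf2l1 was higher in BAT of FXR mice, and 5 of the 8 did not pass the test. Hspa5 encodes BiP, the lumenal Hsp70 chaperone that also holds the stress sensors inactive, and is the customary reporter of the response. Its log2 level was 10.52, 10.80, 10.66, 10.64 and 10.29 on control BAT 1 to 5 and 10.45, 10.04, 10.21, 10.35 and 10.17 on FXR BAT 1 to 5. Only control BAT 5 lay inside the range of the FXR arrays, and the change was -0.34 ± 0.098 (SE), 1.27-fold lower, with limma adjusted p = 0.0374. This call was lost when any 1 of 7 arrays (control BAT 1, 2, 3 or 4, or FXR BAT 2, 3 or 5) was left out, with adjusted p from 0.0572 to 0.0923 and changes from -0.41 to -0.29 over all 10 such fits. Hyou1, the BiP nucleotide exchange factor GRP170, measured 9.17, 9.04, 9.19, 9.16 and 9.05 on the control BAT arrays and 8.82, 8.77, 8.93, 8.84 and 8.97 on the FXR BAT arrays. All FXR arrays were below all control arrays, and the change was -0.25 ± 0.047 with limma adjusted p = 0.00436.

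Sdf2l1, a partner of J-domain proteins in the ER lumen, measured 6.77, 6.78, 6.82, 6.76 and 6.79 on control BAT and 6.95, 6.97, 6.76, 6.97 and 7.01 on FXR BAT. FXR BAT 3 lay among the controls and the other 4 FXR arrays above them. Its change of 0.15 ± 0.045 had a limma adjusted p of 0.0469, and the call held in only 1 of 10 fits that left out 1 array, that without FXR BAT 3, while the other 9 gave adjusted p from 0.0665 to 0.105. The remaining 5 members of the group, tested in the same fit, did not pass. Differences were -0.26 ± 0.094 for Canx and -0.15 ± 0.085 for Calr, the paired lectin chaperones of glycoproteins, -0.18 ± 0.075 for Manf, a small BiP-binding factor, -0.050 ± 0.10 for Hsp90b1, the lumenal Hsp90 GRP94, and 0.016 ± 0.037 for Creld2, an ER protein induced by stress.

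The J-domain co-chaperones deliver clients to BiP and start its ATPase cycle. In BAT, Dnajb9 had the largest called fall of all members, and the other three of the group did not pass. Dnajb9 (ERdj4), which recruits BiP to IRE1 and so restrains it, measured 9.01, 9.38, 9.06, 9.33 and 8.74 on control BAT 1 to 5 and 8.29, 8.37, 8.33, 8.72 and 8.47 on FXR BAT 1 to 5. The highest FXR array was below the lowest control array, and the change was -0.67 ± 0.12, 1.59-fold lower, with limma adjusted p = 0.00385. Dnajc10 (ERdj5), a reductase that opens disulphide bonds of proteins sent to degradation, measured 8.25 to 8.58 on control BAT and 8.36 to 8.87 on FXR BAT, a difference of 0.27 ± 0.098 (limma adjusted p = 0.0918). Dnajc3 (p58IPK), which also inhibits PERK, differed by -0.17 ± 0.066 (limma adjusted p = 0.109) and Dnajb11 (ERdj3), which hands clients to BiP, by -0.050 ± 0.043 (limma adjusted p = 0.514).

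Of the disulphide isomerases, P4hb and Pdia4 rose in BAT of FXR mice and Pdia3 and Pdia6 did not pass. P4hb encodes protein disulphide isomerase itself, which is also the beta subunit of the prolyl 4-hydroxylase that modifies collagen. It measured 9.16, 9.22, 9.22, 9.43 and 8.99 on control BAT and 9.76, 9.80, 9.62, 9.64 and 9.57 on FXR BAT. Every FXR array lay above every control array, and the change of 0.48 ± 0.075, 1.39-fold, was the largest called rise of the members (limma adjusted p = 0.00167). Pdia4 (ERp72) measured 8.76, 8.93, 8.80, 9.10 and 8.79 on control BAT and 9.19, 9.24, 9.40, 9.19 and 9.22 on FXR BAT, again without overlap. It rose by 0.37 ± 0.067 (limma adjusted p = 0.00385), and its dimmer second probe set differed by 0.26. Pdia3 (ERp57), which works with calnexin and calreticulin, differed by 0.070 ± 0.079 and Pdia6 (P5), which binds BiP, by -0.014 ± 0.066, with limma adjusted p = 0.639 and 0.932.

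Transcripts of the 3 sensors showed no called change in BAT. Ern1 (IRE1) differed by 0.044 ± 0.038, Eif2ak3 (PERK) by -0.067 ± 0.054 and Atf6 by -0.081 ± 0.075, with limma adjusted p from 0.487 to 0.553. Of the factors downstream, Atf4 was lower and Xbp1 narrowly missed the threshold in the other direction. Atf4, the transcription factor of the PERK arm, measured 7.91, 8.48, 8.50, 8.50 and 8.02 on control BAT 1 to 5 and 7.81, 7.77, 7.88, 7.98 and 7.89 on FXR BAT 1 to 5. The controls fell into 2 levels, with control BAT 1 and 5 close to the FXR arrays, and the change was -0.42 ± 0.12 (limma adjusted p = 0.0359). Leaving out control BAT 2, 3 or 4 or FXR BAT 1, 2 or 5 ended the call, with adjusted p from 0.0661 to 0.0926. Xbp1 measured 8.79, 8.63, 8.46, 8.60 and 8.50 on control BAT and 8.91, 8.74, 8.79, 8.68 and 8.91 on FXR BAT, which overlap, and differed by 0.21 ± 0.066 (limma adjusted p = 0.0551).

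None of the 4 members of the ATF4 and CHOP arm passed in BAT, although 3 had an unadjusted p below 0.05. Chac1, a glutathione-degrading enzyme, differed by 0.23 ± 0.076 (limma adjusted p = 0.0612), Trib3, a pseudokinase that binds AKT, by 0.26 ± 0.099 (limma adjusted p = 0.112), and Asns, asparagine synthetase, by -0.29 ± 0.12 (limma adjusted p = 0.131). Trib3 ranged from 7.14 to 7.45 on control BAT and from 7.22 to 7.82 on FXR BAT, where FXR BAT 1 was the lowest array. Asns ranged from 10.00 to 10.43 on control BAT and from 9.51 to 10.18 on FXR BAT, where FXR BAT 1 was again the lowest. Ddit3 (CHOP), the pro-apoptotic factor of prolonged stress, had a difference of 0.0086 ± 0.052 (limma adjusted p = 0.946).

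In ER-associated degradation, Derl1 and Syvn1 fell in BAT and 6 of the 8 members did not pass. Derl1, a membrane protein of the retrotranslocation channel, measured 10.19, 10.19, 10.42, 10.17 and 10.21 on control BAT 1 to 5 and 10.02, 9.72, 9.38, 9.64 and 9.57 on FXR BAT 1 to 5. No FXR array reached a control array, FXR BAT 1 came nearest, and the change was -0.57 ± 0.10, 1.48-fold lower (limma adjusted p = 0.00332). Syvn1, the ubiquitin ligase HRD1, measured 7.76, 7.71, 7.70, 7.75 and 7.64 on control BAT and 7.42, 7.60, 7.50, 7.58 and 7.60 on FXR BAT, also without overlap, and changed by -0.17 ± 0.042 (limma adjusted p = 0.0178). Derl2, a relative of Derl1, differed by -0.15 ± 0.060, Sel1l, the adaptor of HRD1, by -0.075 ± 0.048, and Herpud1, its scaffold, by -0.012 ± 0.073. Differences of Edem1 and Edem2, which pick out misfolded glycoproteins, and of Derl3, the remaining derlin, were 0.026, -0.029 and 0.0042, and limma adjusted p of these 6 members lay between 0.125 and 0.975. The mean log2 level over the 8 genes was 8.52 to 8.60 on control BAT arrays and 8.41 to 8.46 on FXR BAT arrays. Their median change was only -0.052, beside -0.57 for Derl1 and -0.17 for Syvn1.

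Neither translocon subunit passed in BAT. Sec61a1, the channel itself, differed by -0.090 ± 0.059 and Sec61b, its small beta subunit, by 0.27 ± 0.16 (limma adjusted p = 0.365 and 0.311). The 3 probe sets of Sec61b gave differences of 0.27, -0.037 and 0.083 in BAT, so its value depends on the probe set used.

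**Figure D2:**
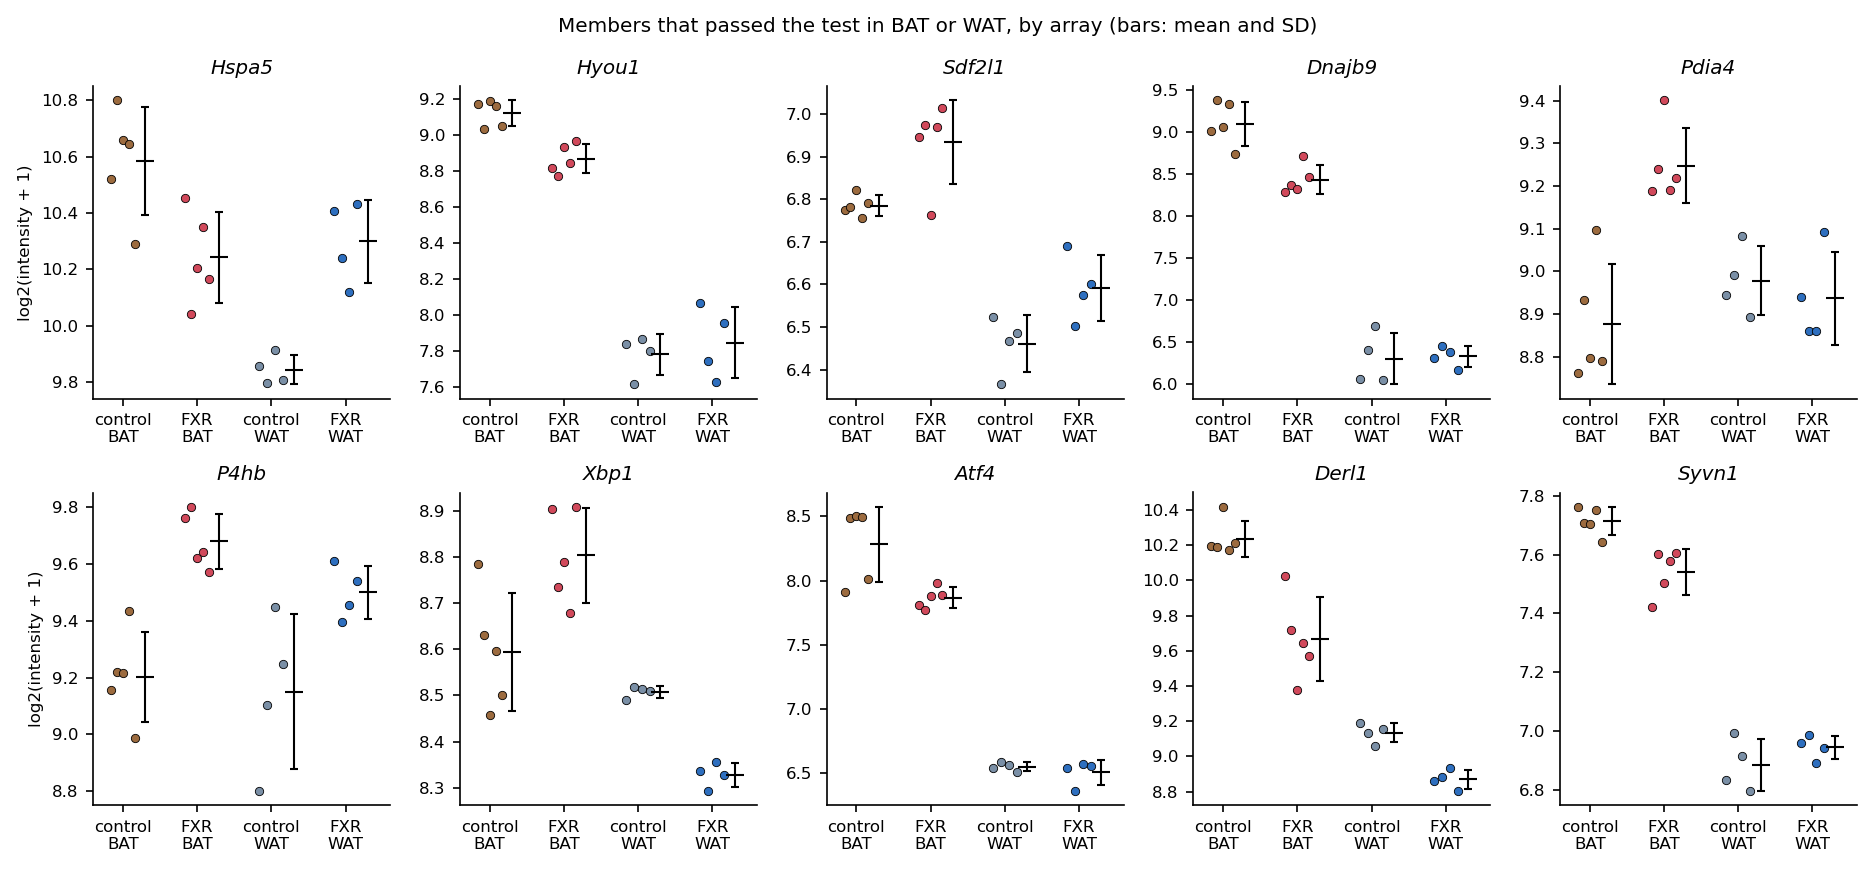
Log2(intensity + 1) of the 10 members that passed the test in BAT or in WAT, 1 point per array in each of the 4 groups, with the group mean and SD as a bar beside the points; each panel has its own vertical range. Hspa5 has a lower mean on FXR than on control arrays in BAT, where the groups overlap, and is separated upward in WAT. P4hb and Pdia4 are separated in BAT, and Derl1 is separated downward in both tissues.

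Markers of other cells differed between the BAT groups beside these genes. Macrophage markers were called higher in FXR BAT for 15 of 15 genes, with a mean log2 level of 7.02 to 7.39 on control arrays and 7.88 to 8.03 on FXR arrays. Fibroblast and progenitor markers were higher for 13 of 14, with 8.21 to 8.75 on control and 9.59 to 9.74 on FXR arrays. Brown adipocyte markers were lower for 8 of 10 and higher for 1, with 10.04 to 10.46 on control and 9.37 to 9.63 on FXR arrays, and mature adipocyte markers were lower for 6 of 10. Endothelial markers were higher for 1 and lower for 3 of 9, and plasma cell markers, of cells rich in ER, were called for 0 of 6 by limma (1 at an unadjusted p below 0.05), with 6.38 to 6.46 on control and 6.38 to 6.50 on FXR arrays. Epithelial and mesothelial markers were called for 0 of 8 in BAT and in WAT by limma, with 0 and 1 at an unadjusted p below 0.05. No array reads 0 for any gene, since the lowest intensity of all was 36.0. The part of these shifts in the changes of the members was not tested.

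Of the 8 marker lists, that of skeletal muscle varied most from array to array in BAT. Their mean log2 level was 11.00, 10.40, 7.02, 10.94 and 8.73 on FXR BAT 1 to 5 and 6.86 to 9.08 on control BAT arrays, and 2 of 15 were called higher. Without FXR BAT 1, 2 and 4, where these markers were highest, 5 members were called in place of 9. Over all genes, calls fell from 3135 to 1914 in this fit, which kept only FXR BAT 3 and 5. Whether muscle content had a part in the lost calls was not tested. P4hb, Pdia4, Dnajb9 and Derl1 were still called, with changes of 0.40, 0.43, -0.71 and -0.76, and Trib3 was called as well, with 0.40 and limma adjusted p = 0.0198. Hspa5 then had -0.40 (adjusted p = 0.0621), Hyou1 -0.17 (adjusted p = 0.104), Syvn1 -0.16 (adjusted p = 0.0964), Atf4 -0.40 (adjusted p = 0.203) and Sdf2l1 0.10 (adjusted p = 0.434).

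Without control BAT 2 and 4, whose extract text has the added feeding period, 5 members were called too, beside 1411 of all genes. P4hb, Pdia4, Dnajb9, Derl1 and Hyou1 had changes of 0.56, 0.46, -0.50, -0.61 and -0.27. Hspa5 had -0.25 (limma adjusted p = 0.235), Atf4 -0.28 (adjusted p = 0.242), Syvn1 -0.16 (adjusted p = 0.112) and Sdf2l1 0.14 (adjusted p = 0.215). P4hb, Pdia4, Dnajb9 and Derl1 were the members whose BAT call held in every one of 10 fits that left out 1 array and in all 10 other settings. Syvn1 and Hyou1 held in all 10 such fits but not in all other settings. After quantile normalization Hspa5 had -0.17 (adjusted p = 0.192), Hyou1 -0.14 (adjusted p = 0.117) and Sdf2l1 0.076 (adjusted p = 0.283), while Dnajc10, Pdia3 and Xbp1 were called higher. After median centring Canx, Manf, Dnajc3 and Derl2 were called lower, and Sdf2l1 had 0.070 (adjusted p = 0.227).

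**Figure D3:**
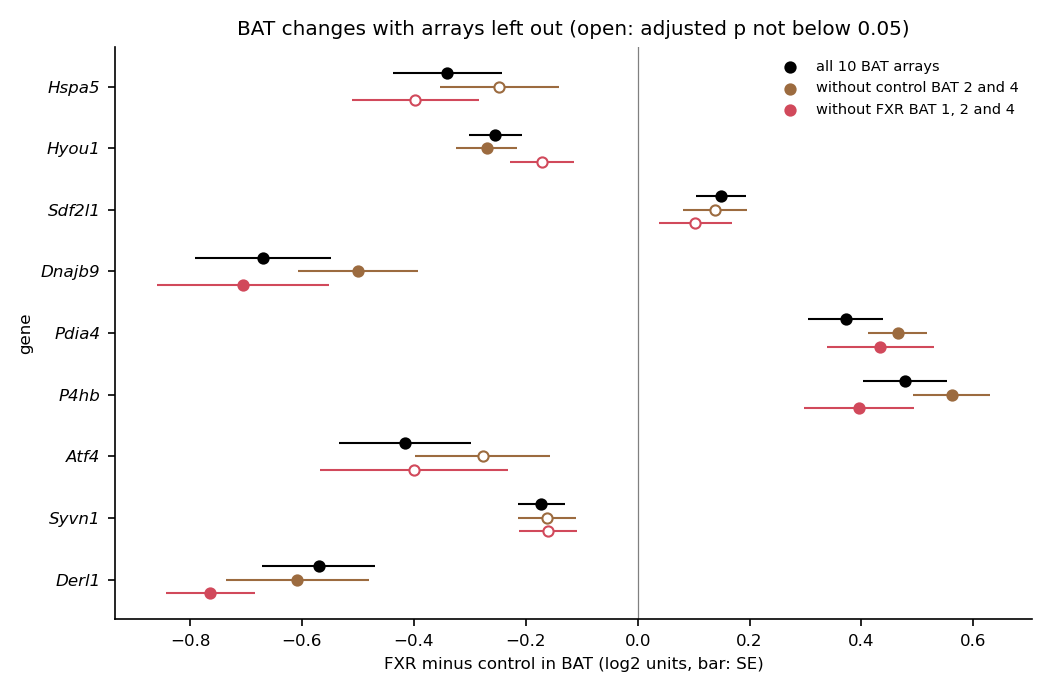
FXR minus control differences in BAT (log2 units, horizontal axis, bars are SE) of the 9 members called over all 10 arrays, beside the same differences without control BAT 2 and 4 and without FXR BAT 1, 2 and 4. Filled points have a limma adjusted p below 0.05, and only Dnajb9, Pdia4, P4hb and Derl1 are filled in all 3 fits.

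In WAT, Hspa5 was higher and Derl1 and Xbp1 were lower in FXR mice, and 32 of 35 members did not pass. Hspa5 measured 9.86, 9.80, 9.91 and 9.81 on control WAT 1 to 4 and 10.41, 10.24, 10.12 and 10.43 on FXR WAT 1 to 4, with all FXR arrays above all control arrays. The rise was 0.46 ± 0.068, 1.37-fold (limma adjusted p = 0.0240). Leaving out control WAT 1, 2 or 4 or FXR WAT 1 moved the adjusted p of Hspa5 to between 0.0521 and 0.0783, with changes of 0.41 to 0.51 over all 8 such fits. Derl1 measured 9.19, 9.13, 9.06 and 9.15 on control WAT and 8.86, 8.88, 8.93 and 8.80 on FXR WAT, and its change of -0.26 ± 0.039 (limma adjusted p = 0.0232) had the direction seen in BAT. Xbp1 measured 8.49, 8.52, 8.51 and 8.51 on control WAT and 8.34, 8.29, 8.35 and 8.33 on FXR WAT, with a very small spread in both groups and no overlap, and changed by -0.18 ± 0.027 (limma adjusted p = 0.0232).

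The calls of Derl1 and Xbp1 each held in 2 of 8 fits that left out 1 WAT array, those without control WAT 3 and without FXR WAT 3. In the other 6 fits the limma adjusted p lay between 0.0511 and 0.0728 for Derl1 and between 0.0505 and 0.0780 for Xbp1. With the variance trend and robust estimation of limma together, Derl1 had an adjusted p of 0.127 and Xbp1 of 0.257. With all 18 arrays in the fit, Derl1 had 0.214 and Xbp1 0.178.

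A further 4 members had every FXR WAT array above every control WAT array without passing. Calr measured 9.93, 9.93, 9.92 and 9.99 on control WAT and 10.29, 10.15, 10.02 and 10.27 on FXR WAT, a difference of 0.24 ± 0.058 (limma adjusted p = 0.0998). Sel1l measured 8.20, 8.16, 8.37 and 8.28 on control WAT and 8.42, 8.46, 8.46 and 8.46 on FXR WAT, a difference of 0.20 ± 0.045 (limma adjusted p = 0.0864). Sec61a1 differed by 0.28 ± 0.078 and Manf by 0.15 ± 0.052, with limma adjusted p = 0.148 and 0.243. The highest control WAT and lowest FXR WAT arrays were 9.136 and 9.158 for Sec61a1. For Manf they were 6.288 and 6.289, and its signal was dim on control WAT 4. The gap between the highest control array and the lowest FXR array was thus narrow for all 4 genes.

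The other lumenal chaperones had WAT differences of 0.21 ± 0.10 (Hsp90b1), 0.13 ± 0.048 (Sdf2l1), 0.12 ± 0.17 (Canx), 0.067 ± 0.097 (Hyou1) and 0.053 ± 0.057 (Creld2), none past the threshold. Those of the isomerases were 0.35 ± 0.12 for P4hb, 0.22 ± 0.10 for Pdia3, 0.19 ± 0.11 for Pdia6 and -0.040 ± 0.060 for Pdia4. P4hb ranged from 8.80 to 9.45 on control WAT and from 9.40 to 9.61 on FXR WAT, where only control WAT 3 reached the FXR arrays, and its limma adjusted p was 0.250. J-domain members differed by 0.30 ± 0.13 (Dnajc10), 0.17 ± 0.087 (Dnajc3), 0.11 ± 0.058 (Dnajb11) and 0.028 ± 0.14 (Dnajb9). None of these genes was called in WAT.

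Of the sensors, factors and outputs of the stress arms, only Xbp1 was called in WAT. Differences were -0.0011 for Ern1, 0.019 for Eif2ak3, -0.030 for Atf6 and -0.045 for Atf4, with limma adjusted p of at least 0.794. Asns had a difference about as large as that of Xbp1 with more spread, -0.19 ± 0.056 (limma adjusted p = 0.182), and Ddit3, Trib3 and Chac1 had -0.018, -0.028 and 0.009. Of the degradation genes besides Derl1 and Sel1l, Herpud1 differed by -0.092, Syvn1 by 0.060, Derl2 by 0.057, Edem1 by 0.050, Edem2 by 0.029 and Derl3 by 0.012. Derl3 was within 1.5-fold of the 1% quantile on all 8 WAT arrays, so its signal there was close to the dimmest of the array. Sec61b differed by 0.11 ± 0.15.

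In WAT, 2 of 14 fibroblast markers were called higher, and the list mean was 8.40 to 8.85 on control and 8.91 to 9.32 on FXR arrays. Macrophage markers were called for 0 of 15 by limma (4 at an unadjusted p below 0.05), with 7.57 to 7.97 on control and 7.73 to 8.14 on FXR arrays, and muscle markers stayed at 6.01 to 6.11 on all WAT arrays. Mature adipocyte markers had 1 called higher and 1 lower of 10. The part of the fibroblast shift in the rise of Hspa5 was not tested.

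The difference of the FXR changes between the tissues, WAT change minus BAT change, was tested over all 18 arrays with 4 group means. It was called for 7 of 35 members (20.0%), 5 higher and 2 lower, beside 6.47% of all genes (4.43% higher and 2.03% lower). Hspa5 had the largest, with 0.80 ± 0.13 (limma adjusted p = 0.00201), since it was lower in BAT and higher in WAT of FXR mice. Xbp1 had the opposite sign in each tissue, and its difference was -0.39 ± 0.081 (limma adjusted p = 0.00793). In BAT, Hspa5 changed by -0.34 beside 0.21 for Xbp1, which did not pass, and in WAT by 0.46 beside -0.18. The calls of both tissue differences held in all 18 fits that left out 1 array and in all 9 other settings.

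Pdia4, called higher in BAT, had a WAT change of -0.040 ± 0.060 and a tissue difference of -0.41 ± 0.097 (limma adjusted p = 0.0161), which held in all 18 fits that left out 1 array and in 8 of 9 other settings. Dnajb9 had 0.70 ± 0.20 (limma adjusted p = 0.0420), with group means of 6.30 ± 0.30 (SD, n = 4) on control WAT and 6.33 ± 0.12 (SD, n = 4) on FXR WAT. Its signal was dim, under 1.5 times the 1% quantile, on control WAT 1 and 4. Sec61a1, Sel1l and Syvn1 had 0.37 ± 0.10, 0.27 ± 0.069 and 0.23 ± 0.063, with limma adjusted p = 0.0364, 0.0237 and 0.0365. The call of Sel1l was lost without control WAT 1 or 2, with limma adjusted p from 0.0533 to 0.0575. That of Sec61a1 was lost without control BAT 2 or 4, FXR BAT 1 or 2, control WAT 2 or 3 or FXR WAT 1 or 4 (0.0593 to 0.0800). That of Syvn1 was lost without control BAT 1, 2, 3 or 4, FXR BAT 1, control WAT 1 or 4 or FXR WAT 1, 2 or 4 (0.0527 to 0.0816). Dnajb9 kept its call in 5 of 18 such fits, those without control BAT 1 or 5, FXR BAT 4, control WAT 3 or FXR WAT 4, and had 0.0527 to 0.0920 in the others. After median centring 11 members were called, 9 higher and 2 lower, beside 1626 higher and 246 lower over all genes. On the deposited scale, 884 of all genes were called higher and 405 lower. After quantile normalization 4 members were called, 2 in each direction, beside 464 higher and 356 lower over all genes. Dnajb9, Sel1l, Syvn1 and Sec61a1 then had 0.56, 0.10, 0.21 and 0.20 (adjusted p from 0.115 to 0.338). Without control BAT 2 and 4, these 4 members, in the same order, had 0.53, 0.23, 0.22 and 0.28, with adjusted p of 0.155, 0.0716, 0.112 and 0.137. Without FXR BAT 1, 2 and 4 they had 0.73, 0.23, 0.22 and 0.31, with adjusted p of 0.0713, 0.132, 0.0776 and 0.157. With the variance trend and robust estimation of limma together, Sel1l, Syvn1 and Sec61a1 had adjusted p of 0.0793, 0.0687 and 0.0599. Dnajb9 kept its call in 6 of 9 settings other than single arrays left out, and each of the other three in 4. For P4hb, called in BAT and not in WAT, the difference itself was -0.13 ± 0.15 (limma adjusted p = 0.709), and for Derl1 it was 0.31 ± 0.13 (limma adjusted p = 0.171), so neither was shown to differ between the tissues.

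**Figure D4:**
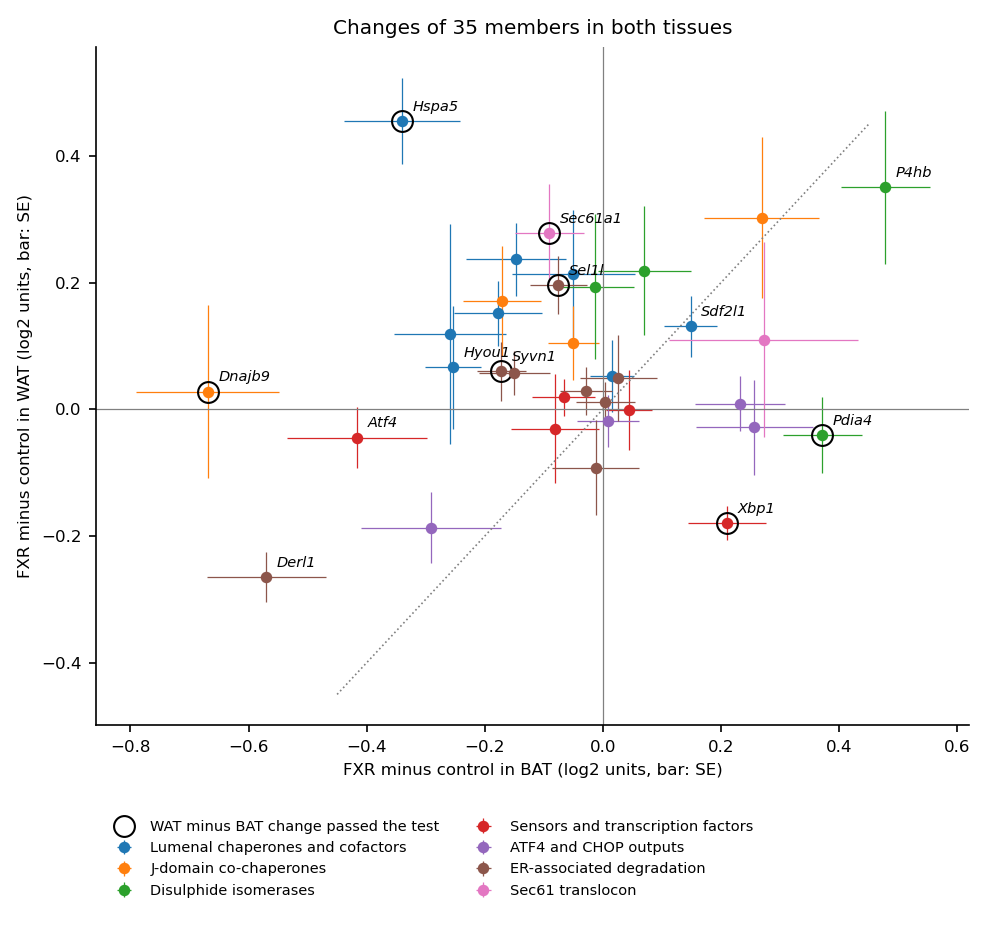
FXR minus control difference in BAT (horizontal) and in WAT (vertical) of the 35 members, in log2 units with SE bars, coloured by role; circles mark the 7 members whose WAT minus BAT difference passed the test, and the dotted line marks equal changes. Hspa5 lies far above the line, Pdia4 and Xbp1 below it, and P4hb near it.

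The 9 members with an ER stress response element were set apart from the other members by that sequence. The member list they come from was chosen with earlier results of these data known. FXR differences of these 9 members ran from -0.34 to 0.016 in BAT, 7 negative and 2 positive, with a median of -0.15. In WAT they ran from 0.012 to 0.46, 9 positive, with a median of 0.17. In BAT, 9 were negative after median centring and 6 after quantile normalization, and in WAT 8 were positive after either. Of all 19937 genes, 8714 were negative in BAT on the deposited scale, 16144 after centring and 11752 after quantile normalization. In WAT, 10127, 8028 and 9352 of all genes were positive on the same scales. The WAT minus BAT difference was positive for all 9 members on each of these scales. It was positive for 9172 of all genes on the deposited scale, 14719 after centring and 10563 after quantile normalization. Its median over the 9 members was 0.26 on the deposited scale, where Hspa5 and Syvn1 were called. That median was 0.33 after centring and 0.10 after quantile normalization. The BAT median of the 9 members was -0.23 after centring and -0.043 after quantile normalization. It was -0.058 without control BAT 2 and 4 and -0.11 without FXR BAT 1, 2 and 4. In each of these fits 6 of the 9 were negative in BAT, beside 9745 and 8301 of all genes. Over all genes, the median after centring was -0.068 in BAT and 0.056 for the WAT minus BAT difference. Without FXR BAT 1, 2 and 4, the WAT minus BAT difference was positive for 8 of the 9. Medians of the other 21 members in the promoter table were 0.026 in BAT and 0.028 in WAT. Those of 12 other measured genes with the element were 0.012 and -0.0042. Of these 12 genes, 5 were negative in BAT on the deposited scale, 11 after centring and 8 after quantile normalization. Their WAT minus BAT difference was positive for 6 on the deposited scale, 10 after centring and 6 after quantile normalization. This is a description of these 9 members, and whether the element acts in either tissue was not tested.

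Levels in control tissue depended on the scale. On the deposited scale, 31 members were higher in control BAT than in control WAT and 0 lower (88.6%), beside 96.8% of all genes called (94.8% higher and 1.98% lower), so this count shows the shift of the whole arrays. The median difference of all genes was 0.59 on that scale, -0.072 after median centring and 0.00037 after quantile normalization. Members called higher in BAT numbered 31, 21 and 6 on these scales, and members called lower 0, 9 and 19. Only 6 were called higher on all 3: Dnajb9, Canx, Atf4, Herpud1, Derl2 and Manf.

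Dnajb9 had measured differences of 2.80, 2.14 and 1.74 log2 units on the 3 scales, with deposited levels of 9.10 ± 0.26 (SD, n = 5) in control BAT and 6.30 ± 0.30 (SD, n = 4) in control WAT. Only 2 of the 4 control WAT arrays read it above the dim limit, so the size of its difference is uncertain. Canx had 2.45, 1.78 and 0.87 and Atf4 had 1.73, 1.07 and 0.67, with no dim array. Calr, Pdia4, P4hb and Xbp1 did not pass on the deposited scale and were called lower in BAT on both others. Hspa5 had a difference of 0.74 on the deposited scale, 0.075 after centring and -0.997 after quantile normalization, so its order between the tissues depends on the scale.

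Other genes of the same routes, from wider lists, were called in both directions in BAT. Beside 15.7% of all genes (7.00% higher and 8.72% lower), 38 of 154 genes on these lists were called (24.7%), 13 higher (8.44%) and 25 lower (16.2%). Of 26 further ER folding enzymes, 3 were higher and 5 lower (30.8% called). Fkbp2, a proline isomerase of the ER, had -0.64 ± 0.053, Prkcsh, the beta subunit of glucosidase II, -0.39 ± 0.055, and Serpinh1, the collagen chaperone HSP47, 0.31 ± 0.049 (limma adjusted p = 4.92e-05, 0.000944 and 0.00166). Of 19 further degradation genes, 0 were higher and 3 lower (15.8%, about the share of all genes), led by Rnf5, an ER membrane ubiquitin ligase, with -0.32 ± 0.067 (limma adjusted p = 0.00755). Of 28 further translocation and glycosylation genes, 2 were higher and 2 lower (14.3%, again about that share), among them Ssr2 with -0.33 ± 0.072 and Ostc, an oligosaccharyltransferase subunit, with 0.28 ± 0.064. Rnf5 and Ssr2 lost their calls without control BAT 2 and 4 and without FXR BAT 1, 2 and 4, and Ostc without the latter and after median centring. The part of the fibroblast marker rise given above in the changes of P4hb and Serpinh1, both of which act on collagen, was not tested.

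Among 36 further genes of ATF4 and the integrated stress response, 2 were higher (5.56%, beside 7.00% of all genes) and 8 lower (22.2%, beside 8.72%) in BAT. Aldh18a1, an enzyme of proline synthesis, rose by 0.47 ± 0.056, while Ppp1r15b, the constitutive subunit that dephosphorylates eIF2alpha, changed by -0.69 ± 0.095 and Gars, glycyl-tRNA synthetase, by -0.36 ± 0.053 (limma adjusted p = 0.000294, 0.000729 and 0.00126). Of 20 further regulators, 2 were higher and 3 lower (25.0% called). Creb3l1, an ER-bound transcription factor of collagen genes, rose by 0.36 ± 0.033, and Tmbim6, a membrane inhibitor of cell death, changed by -0.33 ± 0.062 (limma adjusted p = 7.63e-05 and 0.00445). Of 25 genes of transport from ER to Golgi, 4 were higher and 4 lower (32.0% called). Sec24d, a cargo-binding coat subunit, rose by 0.60 ± 0.063 and Kdelr3, which returns escaped ER proteins, by 0.49 ± 0.070, while the cargo receptor Lman1 changed by -0.35 ± 0.041 (limma adjusted p = 0.000149, 0.000926 and 0.000294).

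In WAT, 4 of the same 154 genes were called (2.60%), all higher, beside 1.32% of all genes (0.863% higher). Serpinh1 rose by 0.40 ± 0.070, Vldlr, a lipoprotein receptor and ATF4 target, by 0.49 ± 0.077, Sec24d by 0.26 ± 0.050 and Sec31a, an outer coat subunit, by 0.24 ± 0.044, with limma adjusted p = 0.0349, 0.0259, 0.0441 and 0.0408. Each of these calls held in at most 2 of 8 fits that left out 1 WAT array. Serpinh1 and Sec24d were called higher in both tissues. The WAT minus BAT difference was called for Lman1 (0.53 ± 0.063, limma adjusted p = 0.000175), Fkbp2 (0.50 ± 0.094, adjusted p = 0.00426) and Vldlr (0.74 ± 0.12, adjusted p = 0.00134), and those of Lman1 and Vldlr held in all 18 fits that left out 1 array and in all 9 other settings.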

How the data were processed

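Affymetrix whole-transcript arrays were hybridised with cDNA labelled from 500 ng of total RNA, per the labels' protocols. The authors deposited 1 linear intensity per probe set and array, with normalization steps not given in the sources used here. Of 34760 probe sets, 21640 had 1 gene symbol in the platform annotation (21553 with an identifier in the RefSeq gene table), 1321 had several and 11799 none. Single-symbol probe sets covered 19937 genes, 954 of them with several, where the brightest by mean over all 18 arrays was used.

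Values were tested as log2(intensity + 1) by linear models with moderated variances (limma 3.58.1 under R 4.3.3), with Benjamini-Hochberg adjustment over 19937 genes and a threshold of 0.05. FXR and control arrays were compared within BAT and within WAT, the difference of these changes over all 18 arrays, and control BAT with control WAT. Each p-value weighs a difference of group means against the spread between arrays within groups, moderated over all genes. For the difference of the FXR changes, that spread was pooled over both tissues. The members, lists and exclusions were chosen with earlier results of these data known. All members may be named, and from each further list up to 3 called genes per comparison with the smallest adjusted p. The test was also run on simulated data with independent genes and the same spread in every group, a simpler setting than these arrays. Of 100 genes changed there by 0.5 log2 units, 83% to 94% were recovered, depending on the comparison. Each comparison gave 13 to 18 false calls. These data do not cover correlated genes or unequal spreads. The number of arrays limits the precision.

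Alternatives were median centring, quantile normalization, a pseudocount of 16, removal of dim genes (mean not above 1.5 times the 1% quantile), eBayes with trend and robust, the mean of all probe sets, all arrays in the fit, the replicate number as a block, each array left out in turn, and 2 exclusions of several BAT arrays. Promoter sequences are RefSeq windows of GRCm38.p6.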

Additional observations from a re-analysis of the deposited data

Results flagged for a closer look

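The FXR change differed between WAT and BAT for 7 members by the limma test of that difference over 18 arrays. In log2 units, WAT minus BAT, it was 0.80 for Hspa5, 0.70 for Dnajb9, 0.37 for Sec61a1, 0.27 for Sel1l, 0.23 for Syvn1, -0.41 for Pdia4 and -0.39 for Xbp1.

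Single arrays stood apart from the others of their group in 11 of 140 groups of member values by Dixon's criterion, where chance alone gives about 7 (1 in 20). In BAT, these were log2 levels of 10.06 for Hsp90b1 and 7.88 for Dnajb11 on FXR BAT 2, 6.76 for Sdf2l1 and 9.40 for Pdia4 on FXR BAT 3, 10.42 for Derl1 on control BAT 3 and 8.95 for Edem1 on control BAT 4. In WAT, they were 7.89 for Dnajc10 on control WAT 3, 6.12 for Sec61b on control WAT 1, 6.36 for Atf4 on FXR WAT 2, 8.42 for Sel1l on FXR WAT 1 and 6.10 for Derl3 on FXR WAT 4. The value of Pdia4 lay above and that of Sdf2l1 below the other FXR BAT arrays. Hsp90b1 was at 10.46 to 10.61 on the other 4 FXR BAT arrays.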

How the results depend on the processing

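No called FXR change of a member, and no called tissue difference of these changes, reversed its direction under any alternative run. Between control tissues, the members called went from 31 higher and 0 lower to 21 and 9 after median centring and 6 and 19 after quantile normalization. Members called in BAT numbered 9, and 5 without control BAT 2 and 4 or without FXR BAT 1, 2 and 4, where fewer arrays were tested, 6 to 10 when 1 array was left out, and 7 to 12 under the other settings. In WAT the count of 3 became 1 with the variance trend and robust estimation, 1 with all 18 arrays in the fit, and 0 to 5 when 1 array was left out. For the tissue difference the count of 7 became 11 after median centring, 4 after quantile normalization, 4 with trend and robust estimation, 3 without control BAT 2 and 4, and 4 to 11 when 1 array was left out. The cause of these shifts under other scales and variance models was not tested. Over all genes, calls in BAT went from 3135 to 4853 (centring), 1411 (without control BAT 2 and 4) and 1914 (without FXR BAT 1, 2 and 4). Those in WAT went from 263 to 411 (all 18 arrays) and to 49 to 335 (1 array left out). For the tissue difference they went from 1289 to 1872 (centring), 820 (quantile) and 721 (without control BAT 2 and 4). Between control tissues they went from 19292 to 11551 (quantile). With dim genes removed there were 11719, but fewer genes were tested in that setting. With the replicate number as a block, 7 members were called in BAT, 2 in WAT, 6 for the tissue difference and 31 between control tissues. It ended the BAT calls of Hspa5, Sdf2l1 and Syvn1 and added Dnajc10, ended the WAT calls of Derl1 and Xbp1 and added Sec61a1, and for the tissue difference ended those of Pdia4, Sel1l, Syvn1 and Sec61a1 and added Calr, Manf and Dnajc3. Deviations of same-numbered arrays correlated from -0.49 to 0.28 in BAT and from 0.010 to 0.16 in WAT. Between BAT and WAT arrays of one number they correlated from -0.082 to 0.26 in controls and from 0.059 to 0.13 in FXR mice, and 6 of these 8 pairs correlated best with their own number, a hint from the data that the labels do not bear on. The labels do not say which arrays share a mouse, so the numbers were not taken as pairs in the main fits. Those fits treated all arrays as independent, and whether same-numbered BAT and WAT arrays came from the same mice remains unknown. Low signal limits Derl3 on all WAT arrays, Dnajb9 on 2 control WAT arrays, Sec61b on 1 array of each WAT group, Manf on 1 control WAT array and Trib3 on 1 FXR WAT array.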

Other observations

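Some of the further genes differed between the tissues in the direction of Hspa5. Beside Fkbp2, Lman1 and Vldlr, the WAT minus BAT difference was called higher for Prkcsh (0.42 ± 0.090, limma adjusted p = 0.00929) and Ganab (0.39 ± 0.097, adjusted p = 0.0207), the subunits of glucosidase II, which trims glycans before calnexin and calreticulin bind. It was also called higher for Ssr2, a translocon-associated protein (0.54 ± 0.13, adjusted p = 0.0141), Alg5, an enzyme of glycan assembly (0.36 ± 0.073, adjusted p = 0.00721), and Cebpb, a transcription factor that pairs with ATF4 (0.61 ± 0.14, adjusted p = 0.0157). It was called lower for Stc2, a secreted glycoprotein and ATF4 target (-0.35 ± 0.080, adjusted p = 0.0133), and for Srp68, of the translocation list (-0.27 ± 0.059, adjusted p = 0.0108). Alg5 was called in all settings tried. Srp68 was not called after median centring or with trend and robust estimation. Prkcsh, Ganab, Ssr2 and Cebpb were not called after quantile normalization, Cebpb was also not called with the replicate block, Ganab and Ssr2 without control BAT 2 and 4, and Ganab and Stc2 without FXR BAT 1, 2 and 4. Over all further lists the tissue difference was called for 28 of 154 genes (18.2%), 25 higher (16.2%) and 3 lower (1.95%). Beside this, 6.47% of all genes were called (4.43% higher and 2.03% lower).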
